A study of Mus musculus with 9 samples.

Results

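The miR-148 and miR-152 family comprises 3 paralogous miRNA precursors, miR-148a, miR-148b and miR-152, each of which gives a mature miRNA from its 5′ arm (5p) and from its 3′ arm (3p). All 6 mature miRNAs (mmu-miR-148a-3p, mmu-miR-148a-5p, mmu-miR-148b-3p, mmu-miR-148b-5p, mmu-miR-152-3p and mmu-miR-152-5p, written below without the species prefix) were found by name among the 1966 mature miRNAs of the deposited table, and each had counts in every library. The members were taken by name, but the family was selected on its values in the knockout against WT comparisons of these same libraries. Differences of the members from WT are therefore a description. How many members passed the threshold there is printed only beside the share of all miRNAs that did. The p-values of members are given only for the direct comparison of the knockouts. That comparison uses the same knockout libraries, so it is not independent of the choice of the family.

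Small RNA was sequenced from quadriceps of 9 mice, 1 library per mouse, all aged 90 days. The 3 wild-type mice (WT) were C57BL/6J. The 3 Mbnl1KO mice were also C57BL/6J and carried the ΔE3 deletion on both Mbnl1 alleles with intact Mbnl2. The 3 Mbnl2KO mice had intact Mbnl1, were on the B6.C-Tg(CMV-cre)1Cgn/J strain, and carried a different allele pair in each animal: ΔE2/ΔE2 in replicate 1, ΔE2/ΔE3 in replicate 2 and ΔE2/ΔE4 in replicate 3. These genotypes and strains are those of the labels, whereas the paper's results section names a single homozygous genotype for this group and littermate WT mice. CMV-cre is a transgene active in most tissues including the germ line, and the strain and the loss of Mbnl2 cannot be told apart in these libraries. The MBNL proteins bind RNA and control alternative splicing, and the study asked how their loss affects muscle miRNAs. Their mRNAs were not measured here, so the genotypes rest on the labels alone.

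miRNAs guide Argonaute proteins to messenger RNAs, and the seed, the run of bases near the 5′ end of the miRNA, largely sets which messages are bound. Members of a seed family can therefore share targets. The 3p arms of this family are known repressors of the DNA methyltransferases Dnmt1 and Dnmt3b. miR-148a is best known as an abundant hepatic miRNA and as a miRNA that favours the differentiation of muscle precursors through repression of Rock1. Because whole muscle was sequenced, a change in the number of cells of a type and a change in miRNA level per cell cannot be told apart.

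The mature sequences show what the paralogs share and what separates them. They are RefSeq sequences on GRCm38.p6, written 5′ to 3′, with the seed (bases 2 to 8) in capitals. The 3p arms come first, followed by the 5p arms.
miR-148a-3p: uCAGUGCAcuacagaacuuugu
miR-148b-3p: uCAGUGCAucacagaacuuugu
miR-152-3p: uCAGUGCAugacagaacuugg
miR-148a-5p: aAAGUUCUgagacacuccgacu
miR-148b-5p: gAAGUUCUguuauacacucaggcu
miR-152-5p: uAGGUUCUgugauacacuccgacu

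The 3p arms had identical seeds, and of 1679 distinct mature miRNAs in the RefSeq table only these 3 carried CAGUGCA at bases 2 to 8. Counted from base 1 at the 5′ end, miR-148a-3p differed from miR-148b-3p by C9U and U10C. It differed from miR-152-3p by C9U, U10G and U20G over the 21 bases that both have. miR-148b-3p and miR-152-3p differed by C10G and U20G, so the sequences can be separated in an alignment without mismatches only by reads that cover these bases. The 5p arms were less alike. miR-148a-5p and miR-148b-5p shared the seed AAGUUCU and 13 of 22 aligned bases, whereas miR-152-5p carried the seed AGGUUCU.

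The precursors lie on 3 chromosomes. Mir148a is at chr6:51269812-51269910 on the minus strand, in an intron of the noncoding gene Gm38821, with the nearest protein-coding genes, Nfe2l3 and Npvf, 162759 bp and 615367 bp away. Mir148b is at chr15:103285125-103285221 on the plus strand within Copz1. Mir152 is at chr11:96850393-96850465 on the plus strand within Copz2. Copz1 and Copz2 encode paralogous subunits of the COPI vesicle coat. In the GENCODE annotation (GRCm39) both precursors lie on the host's strand in an intron of all 26 Copz1 and all 13 Copz2 transcripts that span them, which is intron 1 of the canonical transcript.

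The hairpins are shown because MBNL proteins are known to bind GC dinucleotides flanked by pyrimidines, including in miRNA precursors. The mature arms are in capitals.
Mir148a: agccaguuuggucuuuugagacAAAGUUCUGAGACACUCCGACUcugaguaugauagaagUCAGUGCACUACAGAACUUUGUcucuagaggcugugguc
Mir148b: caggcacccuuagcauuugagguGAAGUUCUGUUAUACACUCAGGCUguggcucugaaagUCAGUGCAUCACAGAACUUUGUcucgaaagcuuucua
Mir152: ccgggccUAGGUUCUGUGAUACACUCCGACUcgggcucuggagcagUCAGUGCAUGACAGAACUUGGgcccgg

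The transcribed strand of each hairpin was searched for 4 motifs at any position, and none of the 3 hairpins, of 99, 97 and 73 bases, held any of them. In 431 RefSeq mouse hairpins of 73 to 99 bases, the motif UGCU was present in 45.7%. The motif UGCC was present in 37.6% of the same hairpins, the motif CGCU in 13.0% and the motif CGCC in 43 of the 431. At least 1 of the 4 was present in 74.0%. This says only that these 4 motifs are not in these hairpins, all of which hold UGC, followed by A, within the seed of the 3p arm. The flanking primary transcripts were not searched.

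Library totals ran from 4761271 to 6277018 counts, and 909 of the 1966 listed miRNAs had a count in any library. Counts below are normalized counts, the deposited counts after TMM scaling of each library to the mean library, and log2 fold changes come from edgeR's quasi-likelihood fit with their standard error (SE). Replicates of a group varied beyond counting noise (chi-square of 38.8 to 272 per degree of freedom for replicate pairs). Several miRNAs that muscle is known to hold, such as miR-486a-5p and the endothelial miR-126a-3p, are listed at 0 in every library, so a low entry in this table need not be a low level in the tissue. The study's methods describe counting reads that lie within a mature miRNA with a margin of 2 nt at its ends, and the deposited table does not state that it was made in this way. Levels of the paralogs relative to each other therefore hold for this table, and unequal capture of different sequences during library preparation was not tested.

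miR-148a-3p was the main member of the family in all 9 libraries. Its normalized counts were 3237, 2880 and 2540 in WT, 3753, 4037 and 3699 in Mbnl1KO, and 4631, 5937 and 4040 in Mbnl2KO, replicates 1 to 3 in order. All 6 knockout libraries were above all 3 WT libraries. Every Mbnl2KO library, down to replicate 3 at 4040, was above every Mbnl1KO library, though by a margin of only a few counts. The mean was 2886 ± 349 (SD, n = 3) in WT, 3830 ± 182 in Mbnl1KO and 4869 ± 971 in Mbnl2KO. By mean level it ranked 50th of all miRNAs in WT, 41st in Mbnl1KO and 37th in Mbnl2KO.

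The fitted log2 fold change of miR-148a-3p was 0.41 ± 0.14 (SE) for Mbnl1KO against WT and 0.77 ± 0.14 for Mbnl2KO against WT, the latter being 1.71-fold. Both comparisons use the same 3 WT libraries. The direct comparison was not itself used to choose the family, but it shares its knockout libraries with the contrasts that were. It gave a log2 fold change of −0.35 ± 0.14 for Mbnl1KO against Mbnl2KO. Its 95% confidence interval was −0.65 to −0.05, and edgeR gave an adjusted p of 0.0743 (Benjamini-Hochberg over the 309 miRNAs tested). This missed the threshold of 0.05 and depended on the processing. With DESeq2's size factors in edgeR this p was 0.0362, and with the Wald test of DESeq2, which uses the same size factors, it was 0.0493. The other alternatives in edgeR did not pass. The adjusted p was 0.837 without normalization beyond library totals, 0.163 with totals that leave out miR-1a-3p and 0.1855 with no filter beyond 1 count. It was 0.1 with a mean above 100, 0.0739 with all 9 libraries in 1 fit and 0.0889 with the replicate number as a block. When each library was left out in turn, the log2 fold change ranged from −0.51 to −0.20. The adjusted p was 0.0204 without Mbnl2KO replicate 3, the lowest of its group, and 0.0491 without Mbnl1KO replicate 2. It was 0.294 without Mbnl2KO replicate 2, the highest of its group, and between 0.1 and 0.198 without any of the other 3.

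miR-148b-3p, with the same seed, was present at a lower level. The WT libraries had 616, 598 and 501 normalized counts, the Mbnl1KO libraries 627, 828 and 654, and the Mbnl2KO libraries 655, 692 and 655. The knockout libraries again all lay above WT, but the highest WT library and the lowest Mbnl1KO library were close together. Group means were 572 ± 61.8, 703 ± 109 and 667 ± 21.3 (SD, n = 3) in WT, Mbnl1KO and Mbnl2KO. The log2 fold change was 0.29 ± 0.16 (SE) for Mbnl1KO against WT and 0.24 ± 0.14 for Mbnl2KO against WT. Between the knockouts the groups overlapped, with a log2 fold change of 0.07 (95% confidence interval −0.25 to 0.39, adjusted p = 0.718).

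miR-152-3p was scarce in this table, and whether this reflects its level in muscle or how the table was counted is not settled. Its share of the family and its ratios below carry the same limit. It had raw counts of 35, 27 and 21 in WT, 76, 42 and 26 in Mbnl1KO, and 30, 35 and 20 in Mbnl2KO. As normalized counts these were 37.8, 26.3 and 25.9 in WT, 56.6, 43.4 and 21.8 in Mbnl1KO, and 29.9, 34.3 and 25.4 in Mbnl2KO. The Mbnl1KO group held both the highest and the lowest of the 9 values, and all groups overlapped. The log2 fold change was 0.43 ± 0.33 (SE) for Mbnl1KO against WT and 0.02 ± 0.31 for Mbnl2KO against WT. For Mbnl1KO against Mbnl2KO it was 0.44, with a 95% confidence interval of −0.27 to 1.14 and an adjusted p of 0.334, an interval that holds both an equal level and a doubling. When each library was left out in turn, this value ranged from 0.11 to 0.75, and that of Mbnl1KO against WT from 0.11 to 0.74.

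**Figure D1:**
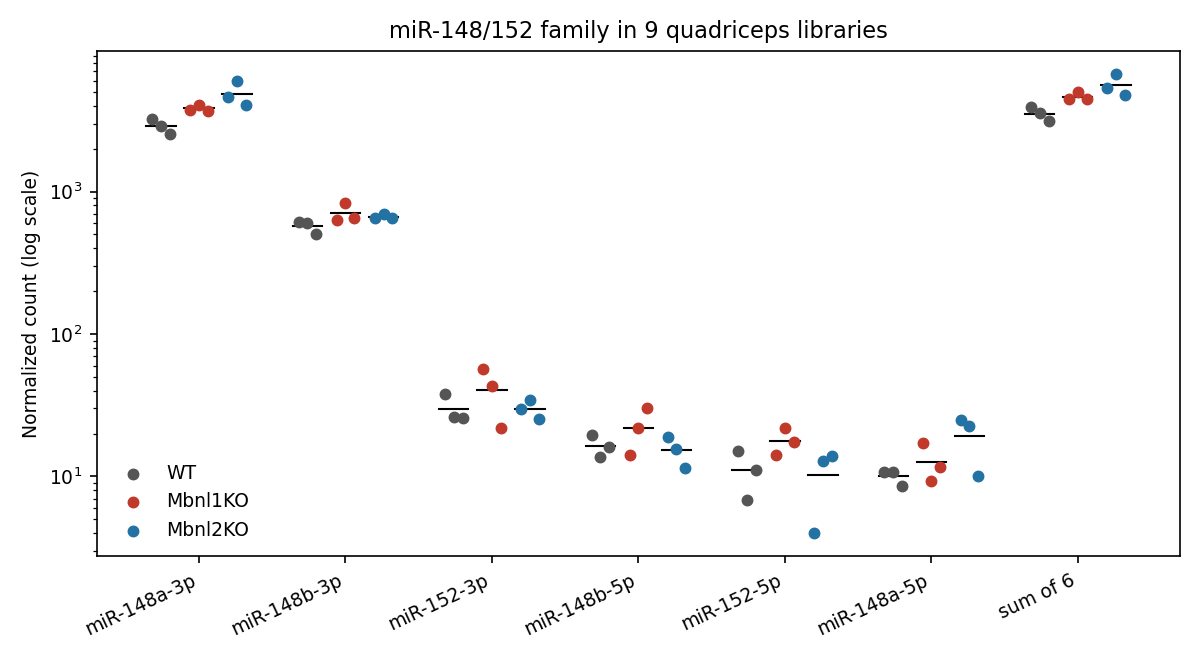
Normalized count (log axis) of each family member and of the sum of all 6 in each library, coloured by group, replicates 1 to 3 from left to right, with a bar at the mean of 3 mice. The miR-148a-3p points of the knockouts, from 3699 upward, all sit above the highest WT point at 3237, whereas the groups of miR-152-3p overlap.

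The 5p arms had between 4 and 36 raw counts per library. miR-148a-5p had normalized counts of 10.8, 10.7 and 8.62 in WT, 17.1, 9.31 and 11.7 in Mbnl1KO, and 24.9, 22.5 and 10.1 in Mbnl2KO. Mbnl2KO replicates 1 and 2 stood above all WT libraries and replicate 3 did not. miR-148b-5p had 19.5, 13.6 and 16.0 in WT, 14.1, 21.7 and 30.2 in Mbnl1KO, and 18.9, 15.7 and 11.4 in Mbnl2KO, and its groups overlapped. miR-152-5p had 15.1, 6.81 and 11.1 in WT, 14.1, 21.7 and 17.6 in Mbnl1KO, and 3.98, 12.7 and 13.9 in Mbnl2KO. The Mbnl1KO libraries of miR-152-5p were all above the Mbnl2KO libraries, by a margin smaller than 1 normalized count.

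The fitted log2 fold changes of the 5p arms were wide. Against WT they were 0.35 ± 0.42 (SE) in Mbnl1KO and 0.97 ± 0.43 in Mbnl2KO for miR-148a-5p. For miR-148b-5p they were 0.42 ± 0.37 and −0.05 ± 0.40. For miR-152-5p the value was 0.68 ± 0.41 in Mbnl1KO, and in Mbnl2KO it did not pass the filter, which required a mean above 10 over the 6 libraries after division by DESeq2's size factors, a scale that differs slightly from the TMM counts given here. In the direct comparison of the knockouts the adjusted p was 0.303 for miR-148a-5p (log2 fold change −0.59), 0.355 for miR-148b-5p (0.49) and 0.214 for miR-152-5p (0.80).

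The order of the members within a library was stable at the top and not at the bottom. miR-148a-3p exceeded miR-148b-3p, and miR-148b-3p exceeded miR-152-3p, in 9 of 9 libraries. miR-152-3p exceeded miR-148b-5p in 8 of 9, the exception being Mbnl1KO replicate 3. Below it the 5p arms exchanged places: miR-148b-5p was above miR-152-5p in 6 libraries and equal to it in 2, and miR-152-5p was above miR-148a-5p in 5. In each precursor the 3p arm was the more abundant arm in all 9 libraries. The ratio of 5p to 3p arm in WT was 0.00367 for miR-148a, 0.0294 for miR-148b and 0.367 for miR-152. The arm ratios overlapped between all groups, with exact permutation p-values of 0.7, 0.5 and 0.6 (two-sided) for miR-148a, miR-148b and miR-152 between the knockouts, or 0.7 for each after Benjamini-Hochberg adjustment over the 3.

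All 6 members passed the filter in Mbnl1KO against WT, and all 6 had a positive log2 fold change, beside 49.2% of all miRNAs tested. Their median was 0.41 against −0.01 over the 317 miRNAs tested. For 2 of the 6 (miR-148a-3p and miR-148b-3p) the Mbnl1KO libraries were all higher than WT, which was so for 22.1% of all miRNAs tested. As a description, 1 of the 6, miR-148a-3p, had an adjusted p under 0.05, beside 33.1% of all tested. That count was 0 without WT replicate 2 (beside 82 of all 316 tested) and without WT replicate 3 (beside 95 of 317). In Mbnl2KO against WT, 5 members were tested, and 4 had a positive log2 fold change, beside 52.6% of all tested. The median of the 5 was 0.24 against 0.02 over the 293 tested. The member left out, miR-152-5p, had a log2 fold change of −0.11 ± 0.55 (SE) when fitted without the filter. The same 2 members did not overlap with WT, beside 11.6% of all tested that were higher without overlap, and 1 of the 5, again miR-148a-3p, had an adjusted p under 0.05, beside 5.8% of all tested. Since these contrasts chose the family, the counts were in part fixed by that choice and nothing is read from them. Between the knockouts, 0 of 6 members were called by edgeR and 1 by DESeq2 (miR-148a-3p), beside 26.9% (83 of 309) of all miRNAs tested by edgeR and 79 of 309 by DESeq2. At an unadjusted p under 0.05, edgeR gave 1 of 6 members beside 121 of all 309. For 2 of the 6 (miR-148a-3p lower and miR-152-5p higher in Mbnl1KO) the groups did not overlap, beside 47.9% of all tested. Between the knockouts, each of these shares of the members was below that of all miRNAs.

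**Figure D2:**
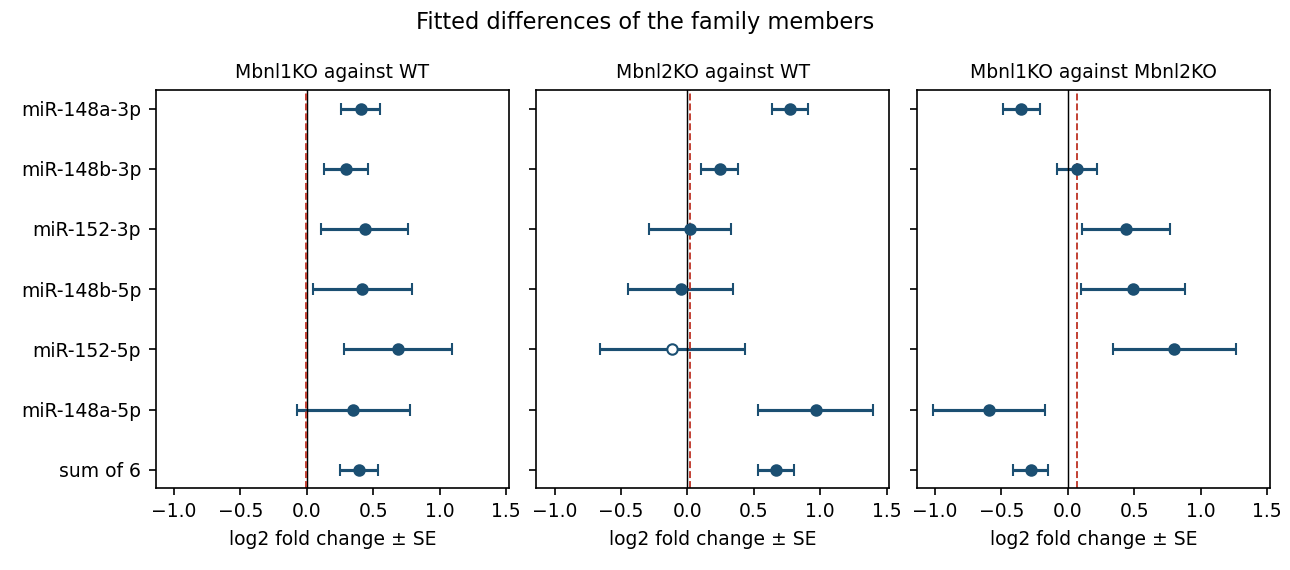
Log2 fold change with SE of each member and of the sum of all 6 in the 3 comparisons, from edgeR on 6 libraries each. The dashed line is the median of all miRNAs tested, and the open symbol is miR-152-5p in Mbnl2KO against WT, whose mean did not pass the filter. miR-148a-3p lies at 0.41 and 0.77 against WT, and at −0.35 between the knockouts.

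The counts were also summed over all 6 arms, of which the 3p arms, with their common seed, made up 98.7% to 99.2% in each library. The family sum was 3937, 3536 and 3103 normalized counts in WT, 4482, 4962 and 4434 in Mbnl1KO, and 5363, 6714 and 4756 in Mbnl2KO. The WT libraries were all below the knockout libraries, while Mbnl2KO replicate 3 lay within the Mbnl1KO range. The means were 3525 ± 417, 4626 ± 292 and 5611 ± 1002 (SD, n = 3). The log2 fold change of the sum was 0.39 ± 0.14 (SE, 1.31-fold) for Mbnl1KO against WT and 0.67 ± 0.13 (1.59-fold) for Mbnl2KO against WT. Between the knockouts it was −0.28 ± 0.13, with a 95% confidence interval of −0.57 to 0.0046 and an adjusted p of 0.131. Without Mbnl2KO replicate 3 this was −0.43 with an adjusted p of 0.042, and without Mbnl2KO replicate 2 it was −0.15 with an adjusted p of 0.432. Of all counts in a library, the family made up 0.0571% ± 0.0037 in WT, 0.0925% ± 0.0090 in Mbnl1KO and 0.0931% ± 0.026 in Mbnl2KO (SD, n = 3). These shares are of totals dominated by miR-1a-3p, at 4338000 ± 351600 normalized counts in WT, 3291000 ± 540100 in Mbnl1KO and 4330000 ± 709500 in Mbnl2KO (SD, n = 3).

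miR-148a-3p took a larger share of the sum in every Mbnl2KO library than in any other library. miR-148a-3p was 82.2%, 81.5% and 81.9% of the family in WT, and 95% Wilson intervals, which cover counting error only, ran from 80.2% to 83.4% over these libraries. It averaged 82.8% ± 1.28 in Mbnl1KO and 86.6% ± 1.75 in Mbnl2KO (SD, n = 3). The share of miR-148b-3p was 16.2% ± 0.64 in WT, 15.2% ± 1.39 in Mbnl1KO and 12.1% ± 1.74 in Mbnl2KO. miR-152-3p contributed 0.846% ± 0.11 in WT, 0.876% ± 0.39 in Mbnl1KO and 0.534% ± 0.023 in Mbnl2KO. The lowest miR-148a-3p share in Mbnl2KO, 84.95%, was above the highest in Mbnl1KO, 83.7%.

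**Figure D3:**
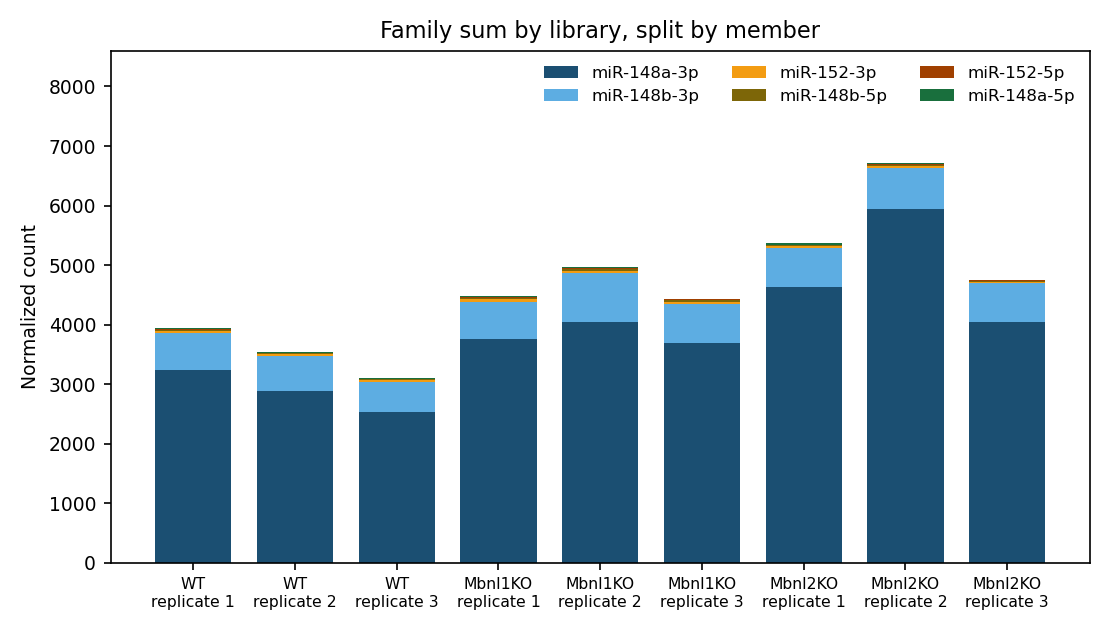
Normalized counts of the 6 members stacked for each library, so that the bar height is the family sum. miR-148a-3p fills most of every bar, and the bars rise from 3103 in WT replicate 3 to 6714 in Mbnl2KO replicate 2.

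Ratios of paralogs within a library do not depend on how libraries are scaled to each other. The ratio of miR-148a-3p to miR-148b-3p was 5.25, 4.81 and 5.06 in WT, 5.98, 4.87 and 5.65 in Mbnl1KO, and 7.06, 8.57 and 6.16 in Mbnl2KO. All Mbnl2KO libraries had a higher ratio than the other 6 libraries, while Mbnl1KO and WT overlapped. On the log2 scale Mbnl1KO was below Mbnl2KO by a difference of −0.39 (means 2.45 and 2.85), with an exact two-sided permutation p of 0.1. That is the smallest p that 3 against 3 allows, and it was 0.3 after Benjamini-Hochberg adjustment over 3 ratios, so the design could not pass 0.05. The corresponding log2 difference from WT was 0.12 in Mbnl1KO and 0.52 in Mbnl2KO, given without a test.

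The ratios to miR-152-3p carried its larger counting error. The ratio of miR-148a-3p to miR-152-3p was 84.4, 108 and 95.9 in WT and 153, 171 and 156 in Mbnl2KO. In Mbnl1KO it was 65.9, 91.9 and 167, reaching from below every WT library to within the Mbnl2KO range. The log2 difference between Mbnl1KO and Mbnl2KO was −0.67 (exact permutation p = 0.3, adjusted 0.45). It ranged from −1.03 to −0.37 when each library was left out in turn. The ratio of miR-148b-3p to miR-152-3p overlapped in all groups, with a log2 difference of −0.27 between the knockouts (exact permutation p = 0.7, adjusted 0.7). That difference changed sign to 0.09 without Mbnl1KO replicate 1.

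**Figure D4:**
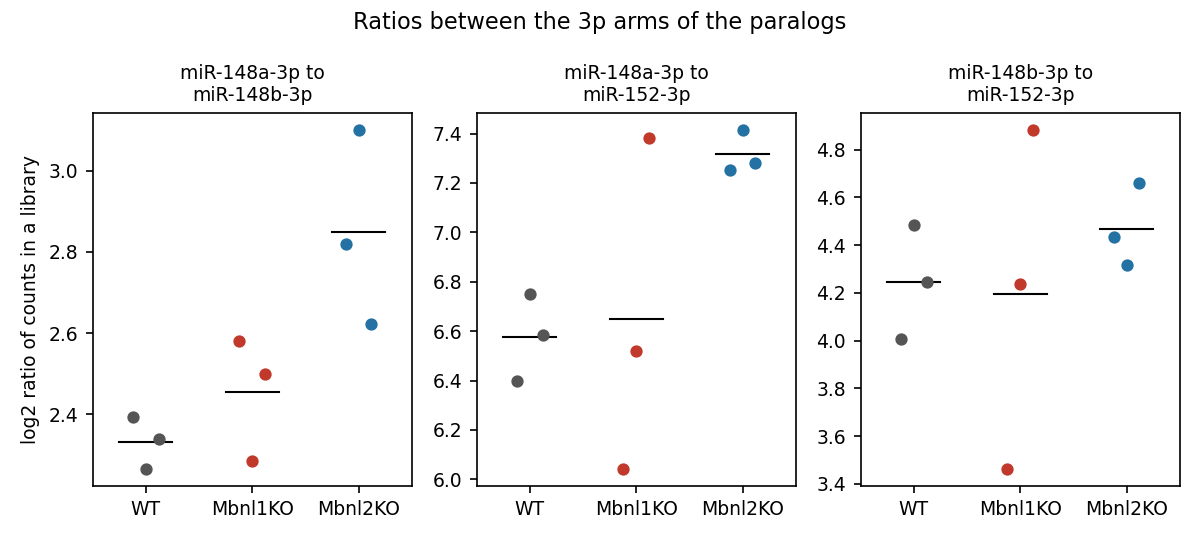
Log2 ratio of raw counts (0.5 added to each) between the 3p arms in each library, replicates 1 to 3 from left to right, with a bar at the mean. In the left panel the Mbnl2KO points, from 2.62 upward, lie above all WT and Mbnl1KO points. In the other panels the Mbnl1KO points spread most.

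The scaling between libraries mattered for the level of every member in Mbnl1KO. With library totals in place of TMM, the median log2 fold change over all miRNAs tested in Mbnl1KO against WT moved from −0.01 to 0.28, and that of miR-148a-3p from 0.41 to 0.71. Relative to the median of all miRNAs, miR-148a-3p stood at 0.41 with TMM and 0.43 with library totals, and miR-148b-3p at 0.30 and 0.31. Between the knockouts, library totals moved the median from 0.07 to 0.35 and the difference of miR-148a-3p from −0.35 to −0.08. Relative to the median it was −0.42 with TMM and −0.43 with library totals. In Mbnl2KO against WT the median stayed between 0.0048 and 0.02 under the same scalings, and miR-148a-3p between 0.76 and 0.79.

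**Figure D5:**
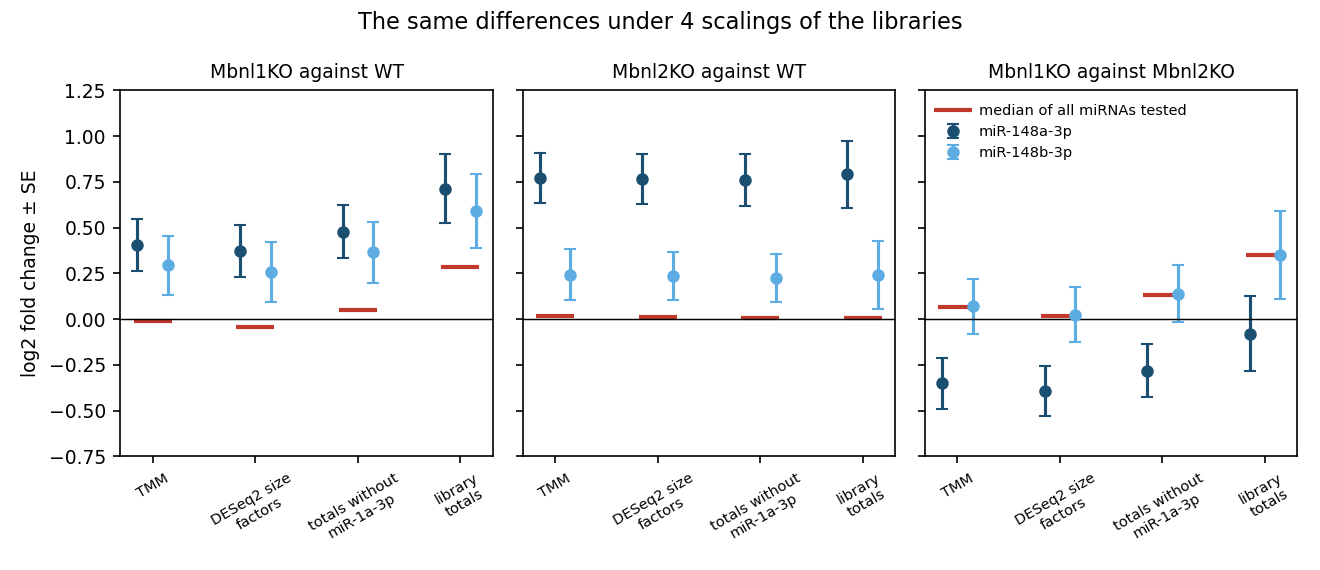
Log2 fold change with SE of miR-148a-3p and miR-148b-3p under 4 scalings of the libraries (TMM, DESeq2's size factors, totals that leave out miR-1a-3p, and library totals), with the median of all miRNAs tested as a red bar. In Mbnl1KO against WT and between the knockouts, the members move up and down with the median. miR-148a-3p stays 0.41 to 0.43 above the median in Mbnl1KO against WT.

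Some miRNAs of other families carry the same 7 bases shifted by 1 position, at bases 1 to 7, here in capitals.
miR-130a-3p: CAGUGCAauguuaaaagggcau
miR-301a-3p: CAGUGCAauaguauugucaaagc

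By their RefSeq sequences, 7 mature miRNAs do so. Of these, miR-130c, miR-6341 and miR-6389 had at most 1 count in a library. The list used here held the other 4 (miR-130a-3p, miR-130b-3p, miR-301a-3p and miR-721) and miR-301b-3p. Of these 5, miR-130a-3p and miR-301a-3p were abundant enough to test, miR-130b-3p had 0 to 3 counts, and miR-301b-3p and miR-721 were listed at 0 throughout. miR-301a-3p had 15.7 ± 3.28 normalized counts in WT, 20.9 ± 6.94 in Mbnl1KO and 8.04 ± 1.48 in Mbnl2KO (SD, n = 3). It was higher in Mbnl1KO than in Mbnl2KO, with a log2 fold change of 1.33 ± 0.43 (SE) (edgeR, adjusted p = 0.0291). miR-130a-3p had 10.3 ± 2.67, 17.2 ± 4.12 and 16.8 ± 9.60 and was not called in any comparison. Between the knockouts 1 of the 2 was thus called, beside 26.9% of all miRNAs tested. Neither was called against WT, beside 33.1% of all miRNAs tested for Mbnl1KO and 5.8% for Mbnl2KO. Their summed level, at most 48.6 normalized counts in a library with all 5 counted, was small beside the sum of the 6 members.

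Of 7 other miRNAs known to repress DNA methyltransferases, 6 were tested and miR-126a-3p was listed at 0. The miR-29 family targets Dnmt3a and Dnmt3b. Its log2 fold changes for Mbnl1KO against WT were −0.09 for miR-29a-3p, 0.42 for miR-29b-3p (adjusted p = 0.076) and 0.14 for miR-29c-3p. miR-143-3p, a miRNA of smooth muscle and connective cells also reported to target Dnmt3a, was higher in Mbnl2KO than in WT, at 31070 ± 2633 against 22650 ± 2230 normalized counts (SD, n = 3). Its log2 fold change was 0.48 ± 0.12 (SE) with an adjusted p of 0.0169. miR-185-5p and miR-342-3p, which target Dnmt1, were not called in any comparison. In all, 0 of the 6 were called in Mbnl1KO against WT (33.1% of all tested), 1 (higher) in Mbnl2KO against WT (5.8%) and 0 between the knockouts (26.9%), with medians of 0.23, 0.01 and 0.22 on the log2 scale.

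The miRNAs most like each 3p arm over the 9 libraries, by Pearson correlation of log2 normalized counts among miRNAs with a mean above 100, are given next. The lists of miR-148a-3p and miR-148b-3p share miR-182-5p, and that of miR-152-3p shares none with them. The libraries share their groups and scaling, so these are descriptions. For miR-148a-3p they were miR-182-5p (r = 0.90), miR-15b-5p (0.85), miR-10b-5p (0.81), miR-140-3p (0.78) and miR-150-5p (0.74), among 164 candidates. For miR-148b-3p they were miR-5121 (0.86), miR-140-5p (0.79), miR-195a-5p (0.78), miR-3535 (0.77) and miR-182-5p (0.77). For miR-152-3p they were miR-503-5p (0.76), miR-221-3p (0.70), miR-450a-5p (0.69), miR-484 (0.66) and miR-497a-5p (0.65). Among the members, miR-148a-3p and miR-148b-3p had r = 0.67 (n = 9), and neither was as close to miR-152-3p (0.23 and 0.36). The arms of a precursor had r = 0.74 for miR-148a, 0.30 for miR-148b and 0.27 for miR-152. miR-152-3p and the 5p arms had few counts, and counting error can lower their correlations, so a low r need not mean separate variation.

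Markers of other cells were read beside these results, because miR-148a is abundant in liver and in some immune cells. The hepatic miR-122-5p was at 0 in all 9 libraries, and of the neuronal miRNAs miR-9-5p was at 0 and miR-124-3p had at most 2.51 normalized counts. Of 8 blood and immune miRNAs, 7 had counts, and their sum was 2280 to 2480 in the WT libraries, 2316 to 3116 in the Mbnl1KO libraries and 2376 to 2630 in the Mbnl2KO libraries. The defining miR-142a-3p was listed at 0. In Mbnl1KO against WT, miR-223-3p of myeloid cells fell by 0.87 on the log2 scale (adjusted p = 3.7e-05) and miR-142a-5p by 0.84 (adjusted p = 0.0295). miR-155-5p of activated lymphocytes and macrophages rose by 0.86 (adjusted p = 1.0e-05). Of the 6 tested, 1 was called higher and 2 lower, both in this comparison (beside 33.1% of all miRNAs tested) and between the knockouts (26.9%). None of the 6 was called in Mbnl2KO against WT, beside 5.8% of all miRNAs tested. On the log2 scale, Mbnl1KO was below Mbnl2KO for miR-223-3p (difference −0.98, adjusted p = 0.00096) and for miR-142a-5p (−1.19, adjusted p = 0.0058), the direction of miR-148a-3p in that comparison, and miR-155-5p was higher (1.31, adjusted p = 0.0018). Of 7 connective tissue and vessel miRNAs, 5 had counts, with sums of 36140 to 40470 in the WT libraries, 32950 to 48480 in the Mbnl1KO libraries and 43130 to 49840 in the Mbnl2KO libraries. The Mbnl2KO libraries, which had the highest miR-148a-3p, thus also had a higher connective and vessel sum than every WT library. The difference lay mainly in miR-143-3p (31070 ± 2633 against 22650 ± 2230, SD, n = 3). Of the 5 tested in Mbnl2KO against WT, 1 was called, beside 5.8% of all miRNAs tested. The other 4 with counts were not called, among them miR-145a-5p (7731 ± 347 against 7615 ± 785) and miR-214-3p (413 ± 70.9 against 452 ± 28.7), and the median log2 fold change of the list was 0.04. In Mbnl1KO, 1 of the 5 tested was called in each comparison, beside 33.1% of all miRNAs tested against WT and 26.9% between the knockouts. It was miR-199a-3p, which was lower than in WT (−0.43, adjusted p = 0.0139) and than in Mbnl2KO (−0.45, adjusted p = 0.0274). The part of the blood, immune, connective and vessel miRNAs in the result was not tested.

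Of 7 skeletal muscle miRNAs, 6 had counts and made up most of each library, with sums of 4536000 to 5174000 in the WT libraries, 3156000 to 4133000 in the Mbnl1KO libraries and 4145000 to 5501000 in the Mbnl2KO libraries. The labelled tissue was thus matched by its main miRNAs, miR-1a-3p and miR-133a-3p. miR-206-3p, a muscle miRNA that rises in regenerating fibres, was higher in Mbnl1KO (log2 fold change 1.93, adjusted p = 4.4e-21) and in Mbnl2KO (0.89, adjusted p = 0.00076) than in WT. Between the knockouts it was higher in Mbnl1KO (1.06, adjusted p = 2.9e-05), opposite in sign to miR-148a-3p. miR-133b-3p was higher in Mbnl1KO than in WT (0.71, adjusted p = 0.0172) and than in Mbnl2KO (0.88, adjusted p = 0.0072). The other 3 tested (miR-1a-3p, miR-133a-3p and miR-499-5p) were not called in any comparison, though miR-1a-3p was close to the threshold in Mbnl1KO. Its log2 fold change was −0.40 against WT (edgeR, adjusted p = 0.0502) and −0.40 against Mbnl2KO (adjusted p = 0.0627). Of the 5 tested, 2 were called in Mbnl1KO against WT (beside 33.1% of all miRNAs tested), 1 in Mbnl2KO against WT (5.8%) and 2 between the knockouts (26.9%). The list's median in Mbnl2KO against WT was −0.15. The part of these miRNAs in the miR-148a-3p levels was not tested.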

How the data were processed

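Small RNA libraries (NEXTflex kit, 200 ng of total RNA) of quadriceps from 3 WT, 3 Mbnl1KO and 3 Mbnl2KO mice were analysed. The authors deposited raw counts per mature miRNA without normalization. Their methods describe adapter clipping, mismatch-free alignment to miRBase precursors and summing of reads within a mature miRNA and 2 nt around it, and the submitters' notes name DESeq2. Whether this counting made the deposited table is not stated in it. Rows were taken as deposited, and 0 columns were left unmapped.

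Every comparison was fitted on the 6 libraries it concerns with edgeR 4.0.16 (R 4.3.3, robust quasi-likelihood, TMM) for miRNAs with a mean count above 10 after division by DESeq2's size factors, with Benjamini-Hochberg adjustment over all of them and a threshold of 0.05. The same fit was run with the members replaced by their sum. Ratios used a pseudocount of 0.5 and exact permutation tests. DESeq2 1.42.0 was an alternative. The fits were tested on simulated data. Named miRNAs were the 6 members, 5 with the shifted seed, 7 that repress DNA methyltransferases, the 5 most correlated with each 3p arm, and markers of muscle, blood and immune, connective and vessel, liver and neuronal cells. Members and lists were chosen with earlier results of these data known. Read counts are not independent molecules. Figures used matplotlib 3.10.9 (Python 3.11.15, pandas 2.3.3).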

Additional observations from a re-analysis of the deposited data

How the results depend on the processing

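Of the values recomputed under each alternative, 484 kept their side of the threshold or moved by less than the replicate spread, 13 moved and 5 newly passed the threshold. The sign changed in 11 values of 5 results, 10 of them with a library left out. Beside those below, these were miR-148b-5p (−0.05, up to 0.09) and miR-152-3p (0.02, down to −0.07) in Mbnl2KO against WT. As a description of the contrast that chose the family, the number of members called in Mbnl1KO against WT was 2 with library totals (beside 102 of all 317 tested), 0 with no filter beyond 1 count (91 of 846) and 0 at a threshold of 0.01 (73 of 317), and between 0 and 1 when each library was left out in turn (75 to 115 of 306 to 317). The family sum in Mbnl1KO against WT was 0.70 with library totals, with all miRNAs tested shifted in the same direction. Between the knockouts, the number called was 1 with DESeq2's size factors (beside 93 of all 309) and 1 with DESeq2's Wald test (79 of 309), and 0 to 1 when libraries were left out (55 to 93 of 307 to 319). With library totals the family sum between the knockouts was −0.0098 (edgeR, adjusted p = 0.987) and miR-148b-3p was 0.35. When libraries were left out, the family sum ranged from −0.43 to −0.15, and miR-148b-3p from −0.091 to 0.15. The ratio of miR-148b-3p to miR-152-3p ranged from −0.62 to 0.091, and the arm ratio of miR-148a from −0.47 to 0.054. The cause of these changes was not tested. Replicate numbers did not pair the samples (correlation of same-numbered deviations −0.15 to 0.15). With the replicate block, the family sum was −0.27 between the knockouts (adjusted p = 0.166), 0.39 for Mbnl1KO and 0.66 for Mbnl2KO against WT, and no count of members called changed. Depth limits the 5p arms and miR-152-3p, with at most 76 counts in a library.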
